A study of Mus musculus with 4 samples.

Results

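The genes described here are 10 genes of the G1/S step of the cell cycle: the D-type cyclins Ccnd1, Ccnd2 and Ccnd3, their kinases Cdk4 and Cdk6, the E-type cyclins Ccne1 and Ccne2, their kinase Cdk2, the retinoblastoma gene Rb1 and the transcription factor gene E2f1. Their peaks of trimethylated histone H3 lysine 36 (H3K36me3) were taken from the authors' annotation as the peaks named for one of these genes and classed as anything but intergenic. This gave 16 of the 36820 peaks of the wild-type (WT) library and 31 of the 95750 peaks of the knockout (cKO) library. These peaks carried the names of 8 of the 10 genes, and no such peak was named for Cdk6 or E2f1.

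The data are chromatin immunoprecipitation and sequencing (ChIP-seq) of mouse forebrain at embryonic day 13, labelled as neural progenitor cells on a C57BL/6 background. The WT group has no deletion in its labels, and the cKO group, labelled H2A.z1cKO, lacks the histone variant H2A.z1 by a brain-specific deletion. The sources used here name neither the driver of that deletion nor any pooling of animals. Each genotype had 1 ChIP library (31984670 tags in WT and 32927164 in cKO) and an input, so there was no replicate and no test between genotypes, and each difference is one between 2 libraries. In such bulk tissue, a mark in fewer cells and a weaker mark in all cells cannot be told apart. The peaks of the cKO library were more numerous and covered 5.18 times as many bases overall (69.1 Mb against 13.3 Mb), and that ratio is the background for everything below. Over all reference genes, the share with a peak over the gene body was 31.3% in WT and 43.7% in cKO. Of 12 marker genes of neural progenitors, 10 had a WT peak and 11 a cKO peak, with Fabp7 at 0 in both. Of 7 neuronal genes 2 had a WT peak and 3 a cKO peak, and only Tubb3 had a peak in both. Coverage of Tubb3 was 27.6% in WT against 38.7% in cKO, Gad2 went from 0.722% to 0, and Stmn2 (0.396%) and Mapt (0.626%) had a peak in cKO alone. None of the 6 marker genes of blood, 5 of endothelium, 5 of microglia and 6 of mesenchyme and pericytes had a WT peak. Of these only the microglial Csf1r had a cKO peak, over 7.02% of its body.

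Cells pass from G1 into S phase when D-type cyclins with Cdk4 or Cdk6, and then E-type cyclins with Cdk2, phosphorylate the retinoblastoma protein. This frees E2F factors, which switch on the genes of DNA replication and the E-type cyclins themselves. In cortical progenitors the D- and E-type cyclins govern the length of G1, which lengthens as cells turn to making neurons. H3K36me3 is written behind elongating RNA polymerase II and accumulates toward the 3' part of transcribed genes.

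Peaks lay over most of these genes in both genotypes, and they covered more of each marked gene in cKO. By position, 8 of the 10 genes had a WT peak over the gene body and all 10 had a cKO peak. Over all reference genes, 31.3% had a WT peak over the body and 43.7% a cKO peak. By the authors' names the counts were 7 and 8, against 27.9% and 39.1% of all genes. Coverage, the share of the gene span in bases that lies inside peaks, was called higher when it exceeded that of WT by at least 10 percentage points in a gene of at least 5 kb. By this rule 4 of the 9 genes of that length were higher with the named peaks (Ccnd1, Ccne1, Ccne2 and Cdk2). When all peaks over the span were counted, whatever their name, Ccnd2 and E2f1 joined them and 6 of 9 were higher. The share of all genes of at least 5 kb that were higher, counted by span, was 32.6%. No member was lower, and none of those 16849 genes was lower by at least 10 points. The median difference by span was 30.2 points over the 7 members of that length with a WT peak and 22.9 points over the 6398 such genes in all, with quartiles of 10.1 and 37.0 points. The members' median thus lay inside the middle range of marked genes.

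**Figure D1:**
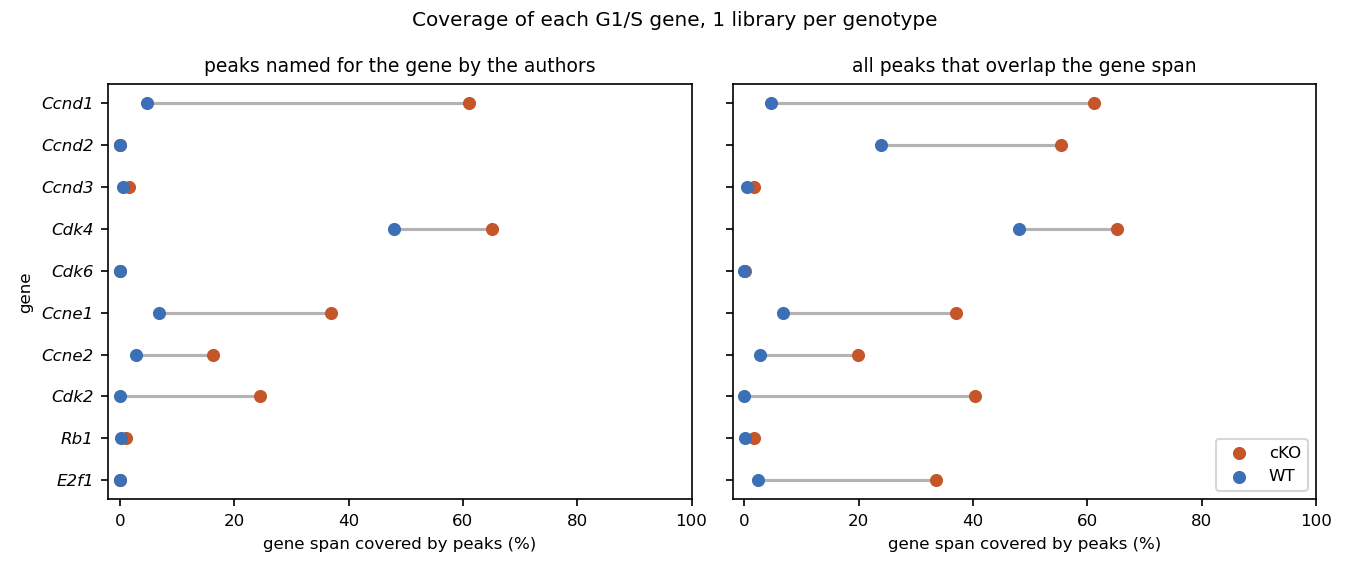
Share of each gene span covered by H3K36me3 peaks (%) in WT (blue) and cKO (orange), 1 point per library, with the peaks named for the gene on the left and all peaks over the span on the right. Ccnd2 and E2f1 are at 0 on the left and reach 55.3 and 33.5% in cKO on the right.

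Ccnd1 encodes cyclin D1, which couples growth signals to entry into the cycle. The gene (ENSMUSG00000070348.4; chromosome 7, 144929931 to 144939831, mm10) is 9.90 kb long and read from its higher to its lower coordinate. WT had 2 peaks, one of 313 bp in the last intron (144933840 to 144934152) and one of 154 bp in the last exon (144932588 to 144932741), which covered 4.72% of the gene. In cKO there were 5 peaks inside the gene and 61.1% coverage. The widest, 3820 bp from 144932501 to 144936320, contained both WT peaks and was wider than 98.5% of cKO peaks. The difference of 56.4 points was the largest of the 10 genes. The authors named 2 further cKO peaks, of 185 and 209 bp, for Ccnd1 although they lie past its 3' end in the neighbouring gene LTO1.

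Ccnd2, which encodes cyclin D2, shows how far the peak names bear on the result. The only peak named for it lay outside the gene, at -31.303 to -30.888 kb from its start in WT (127183076 to 127183491 on chromosome 6) and at -31.407 to -30.735 kb in cKO. This peak was 416 bp wide in WT and 673 bp in cKO, and it was annotated to an intron of another transcript. The 27.0 kb gene body itself (ENSMUSG00000000184.9; 127125162 to 127152188) carried 13 WT peaks over 23.9% of its bases and 16 cKO peaks over 55.3%. None of these had the name Ccnd2. The authors' annotation named 12 of the WT peaks for 9330179D12Rik and 1 for 9630033F20Rik, while placing all 13 in exons or introns of one transcript with 5 exons. Next to Cdk4, Ccnd2 was the most covered of the 10 genes in WT. Its widest peak measured 1140 bp in WT, in the last exon, and 3768 bp in cKO, in a peak that took in 4 WT peaks. All 13 WT peaks were met by a cKO peak.

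Ccnd3 (cyclin D3) had its peaks only at the 3' end. The span (ENSMUSG00000034165.10; chromosome 17, 47505051 to 47599689) is 94.6 kb long, and its coverage was 0.538% in WT and 1.66% in cKO. Of the 4 WT peaks named for it, 2 lay inside the gene, 93.5 to 94.2 kb from its start, and 2 in the neighbouring gene Bysl, which overlaps the end of Ccnd3. In cKO one peak of 2051 bp (47598343 to 47600393) crossed from Ccnd3 into Bysl and spanned 3 WT peaks. The reference lists a second start of Ccnd3 at 47593467, and measured from there, over 6.22 kb, coverage was 8.18% in WT and 25.3% in cKO. That stretch was chosen after the values were seen, and its difference of 17.1 points would pass the rule that the whole span (1.13 points) did not.

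The partners of the D-type cyclins stood at opposite ends. Cdk4 was the most covered gene of the 10 in both genotypes. It is 3.75 kb long (ENSMUSG00000006728.6; chromosome 10, 127063535 to 127067288), too short for the call rule, and had 48.0% of its span covered in WT and 65.1% in cKO. WT had 4 peaks named for it, of 751, 474, 576 and 1369 bp, and the last lay past the gene in Tspan31. In cKO a single peak of 4097 bp (127064844 to 127068940) spanned all 4 and ran on through the end of Cdk4 into Tspan31, with 59.7% of its length inside Cdk4. The 3 WT peaks inside Cdk4 and the cKO peak ranked high in their lists, while the WT peak in Tspan31 exceeded 86.4% of WT peaks by -log10 q. The first WT peak (127064916 to 127065666), at a fold enrichment of 10.8 over the local input and a pileup of 38 tags, had a larger -log10 q than 99.5% of WT peaks. The cKO peak, at a fold enrichment of 11.9 and a pileup of 67 tags, exceeded 99.6% of cKO peaks. Fold and pileup are the authors' values and were not compared between lists. With peaks within 3 kb joined, the gene had 63.2% in WT and 65.1% in cKO, a difference of 1.92 points in place of 17.2.

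Cdk6, the other kinase of the D-type cyclins, was nearly free of peaks. Its span of 190.0 kb (chromosome 5, 3341004 to 3531008) held no WT peak. The 1 cKO peak over it, 382 bp wide and 180 kb from its start, covered 0.201% and was named for the neighbouring gene Fam133b.

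**Figure D2:**
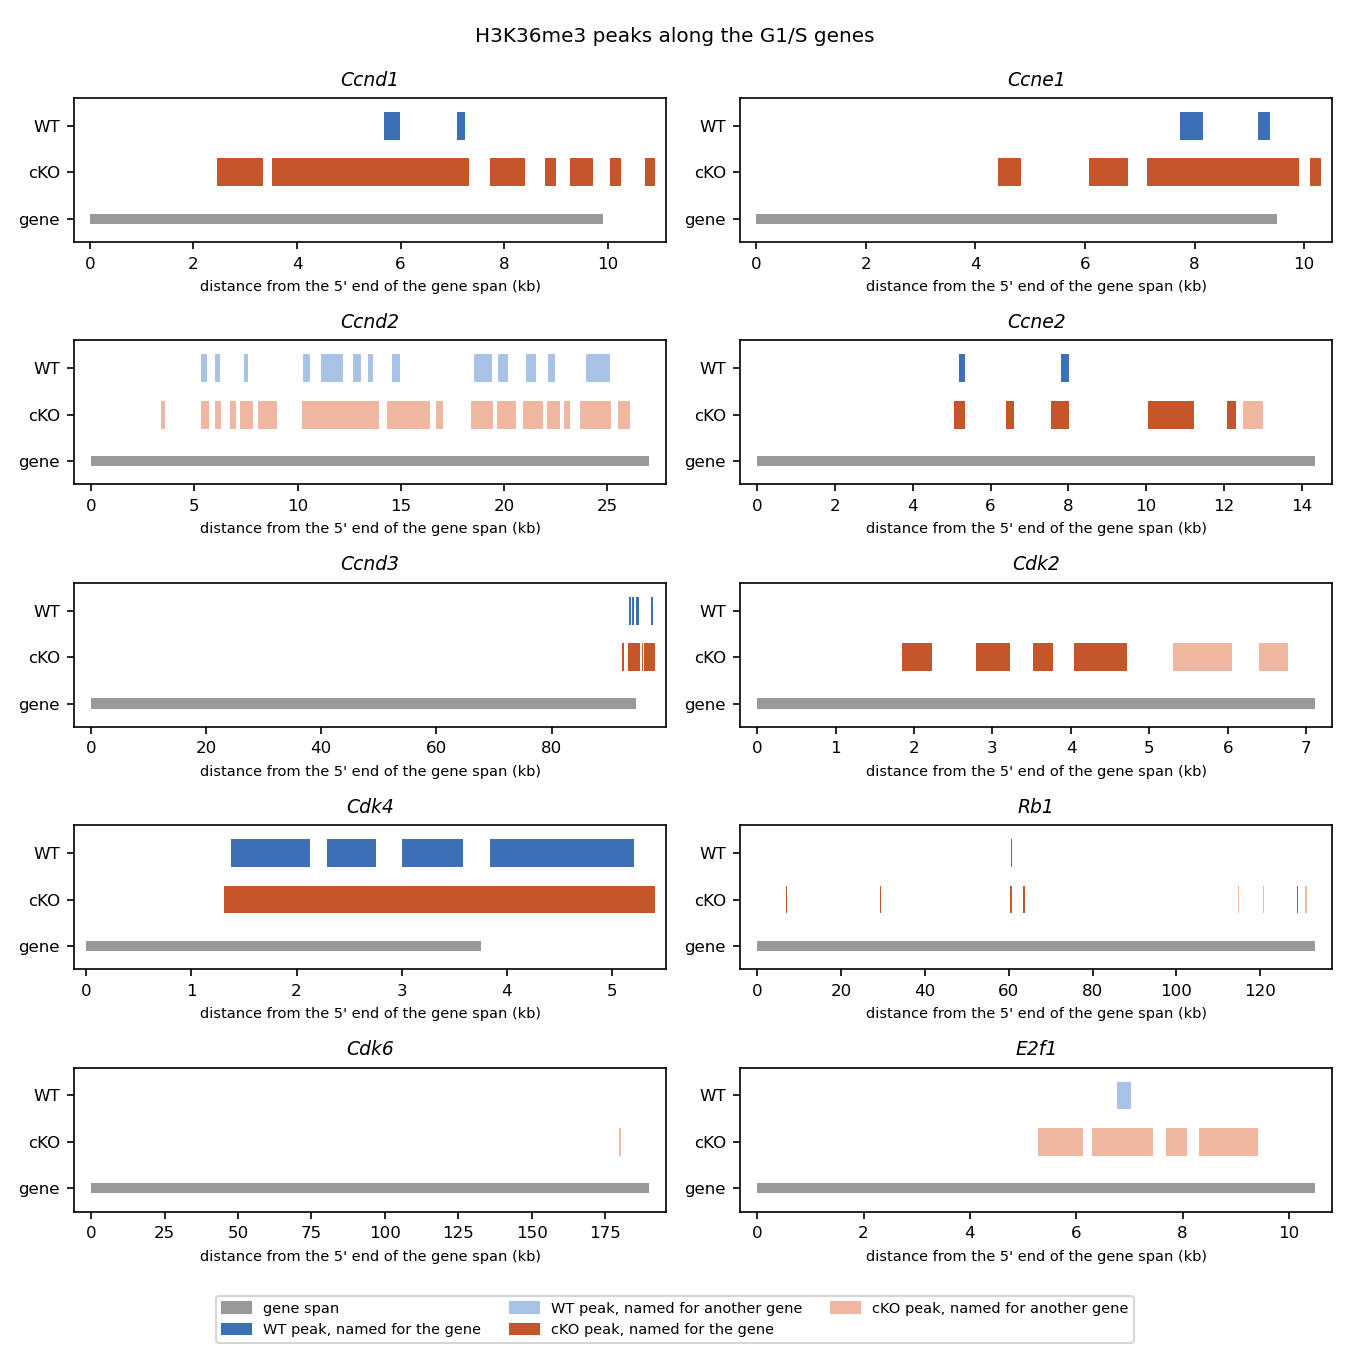
Peaks along each of the 10 genes, as distance in kb from the 5' end of the gene span (grey), for WT (blue) and cKO (orange), with pale peaks named for another gene by the authors and very narrow peaks drawn at a minimum width. Most WT peaks sit inside broader cKO peaks, the first part of the genes is mostly empty, and all peaks over Ccnd2 and E2f1 are pale; the peak named for Ccnd2 lies upstream, outside its panel.

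The E-type cyclins bind Cdk2 late in G1, and the 3 genes of this step had little or no coverage in WT. Ccne1 (ENSMUSG00000002068.10; chromosome 7, 38097984 to 38107490; 9.51 kb) had WT peaks of 225 and 421 bp over 6.79% of its span. In cKO it had 37.0% coverage, a difference of 30.2 points. Its cKO peak of 2782 bp (38097580 to 38100361) contained both WT peaks, ran past the 3' end of the gene and had a larger -log10 q than 96.4% of cKO peaks. Ccne2 (ENSMUSG00000028212.10; chromosome 4, 11190433 to 11204779; 14.3 kb) had 2 WT peaks of 172 and 223 bp over 2.75% of the span. In cKO 5 named peaks covered 16.3%, and 6 peaks 19.9% when a peak named for Ints8 was counted. The last 3 of these lie where Ccne2 and Ints8 overlap, so the peaks do not say which gene they belong to. The 2 WT peaks of Ccne2 are the ones that did not lie wholly inside cKO peaks among the named ones, with 159 of 172 and 213 of 223 bp inside.

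Cdk2 went from no WT peak to 6 cKO peaks. The gene (ENSMUSG00000025358.9; chromosome 10, 128697938 to 128705051; 7.11 kb) had 24.5% of its span inside the 4 cKO peaks named for it and 40.3% inside all 6. The other 2 were named for Rab5b. The cKO peaks were of middling strength, with fold enrichments of 4.23 to 7.52 and widths of 261 to 751 bp. The reference span of Pmel includes all of Cdk2, and the peaks overlap both genes.

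Rb1 and E2f1 form the switch that these kinases act on. Rb1 encodes the retinoblastoma protein, and its span of 133 kb (ENSMUSG00000022105.6; chromosome 14, 73192858 to 73325951) was marked at few places. WT had 1 peak, 180 bp wide in intron 13 (73265302 to 73265481), with a fold enrichment of 7.22 and a larger -log10 q than 92.1% of WT peaks. The cKO library had a 390 bp peak over the same place, whose pileup of 47 tags was the highest of its 8 peaks in Rb1. The other 7 were 185 to 382 bp wide and scattered from 6.86 to 131 kb after the start. Coverage was 0.135% in WT and 1.73% in cKO, or 1.15% with the 5 named peaks. E2f1 (chromosome 2, 154559400 to 154569892; 10.5 kb) encodes an activating E2F factor. By name it had no peak. Over its span lay 1 WT peak of 254 bp (154562869 to 154563122; 2.42% coverage) and 4 cKO peaks of 413 to 1156 bp (33.5%), all named for its neighbour Necab3. The WT peak and the widest cKO peak were annotated to exon 4 of 7 of the same transcript.

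The order of the genes changed between libraries. In WT, coverage by span ran from Cdk4 (48.0%) and Ccnd2 (23.9%) to values under 7% in the other 8. In cKO, Cdk4 (65.1%), Ccnd1 (61.1%) and Ccnd2 (55.3%) led, followed by Cdk2 (40.3%), Ccne1 (37.0%), E2f1 (33.5%) and Ccne2 (19.9%). Rb1 (1.73%), Ccnd3 (1.66%) and Cdk6 (0.201%), the longest of the 10 genes, were lowest. With 1 library per genotype the spread behind these ranks is unknown.

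At the level of single peaks, the WT peaks recurred in cKO. All 16 named WT peaks (100.0%, exact Clopper-Pearson interval at 95% of 79.4 to 100.0%) were overlapped by a cKO peak by at least 1 bp, against 96.0% of all WT peaks. Of the bases in these WT peaks, 99.6% lay inside cKO peaks. In the other direction, 9 of the 31 named cKO peaks (29.0%, interval 14.2 to 48.0%) were met by a WT peak, against 25.3% of all cKO peaks, a share inside that interval. When an overlap of 50% of both peaks was asked, 12.5% of the named WT peaks were met, against 15.5% of all WT peaks. Such intervals cover counting error only, and peaks of 1 gene are not independent. The named WT peaks were 154 to 1369 bp wide with a median of 306 bp, and the named cKO peaks 185 to 4097 bp with a median of 390 bp. Over the whole lists the medians were 271 and 436 bp. The peak caller worked with unequal fragment lengths, 152 bp for the WT library against 185 bp for the cKO library. The narrowest peak of each whole list had exactly that width, so the smallest possible peak was wider in cKO. How far this contributes to the differences in width and coverage was not tested. Summed over the genes, named peaks measured 6553 bp in WT and 25319 bp in cKO, a ratio of 3.86, against 5.18 for all peaks of a class other than intergenic. Mean widths of the named peaks were 410 bp in WT and 817 bp in cKO, against 362 and 721 bp over the whole lists.

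Peaks lay away from the 5' end. When each span was split into 5 equal bins, a WT peak touched the 5'-most bin in 1 of the 8 genes marked in both genotypes (Ccnd2) and a cKO peak in 2 (Ccnd2 and Rb1). Among 5144 genes of at least 5 kb with a known strand and coverage in both, 18.4% had a WT peak and 41.8% a cKO peak in that bin. Cdk4, at 3.75 kb, is among the 8 genes but too short for that set. The 3'-most bin had a cKO peak in all 8 genes and a WT peak in 4, beside 94.3% and 75.0% of the 5144 genes. The bin with the most coverage was not always the last one. In cKO it was the middle bin for Ccnd1 (100.0%) and Ccnd2 (93.5%), the next for E2f1 (78.5%) and the last for Ccne1 (100.0%). The edge of the mark nearest the start lay closer to it in cKO in all 8 genes, as in 94.4% of the 5144 genes. It moved from 5.68 to 2.46 kb in Ccnd1, from 7.73 to 4.41 kb in Ccne1 and from 6.77 to 5.29 kb in E2f1, but only from 1.38 to 1.31 kb in Cdk4 and from 5.18 to 5.07 kb in Ccne2. Of the named peaks, 3 in WT were classed as promoter peaks, 2 in Cdk4 and 1 in Ccne1, and none of 31 in cKO, beside 7.84% and 5.43% of the whole lists. Those 3 lie 1.38 to 8.15 kb after the start of the gene, and were annotated to shorter transcripts.

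**Figure D3:**
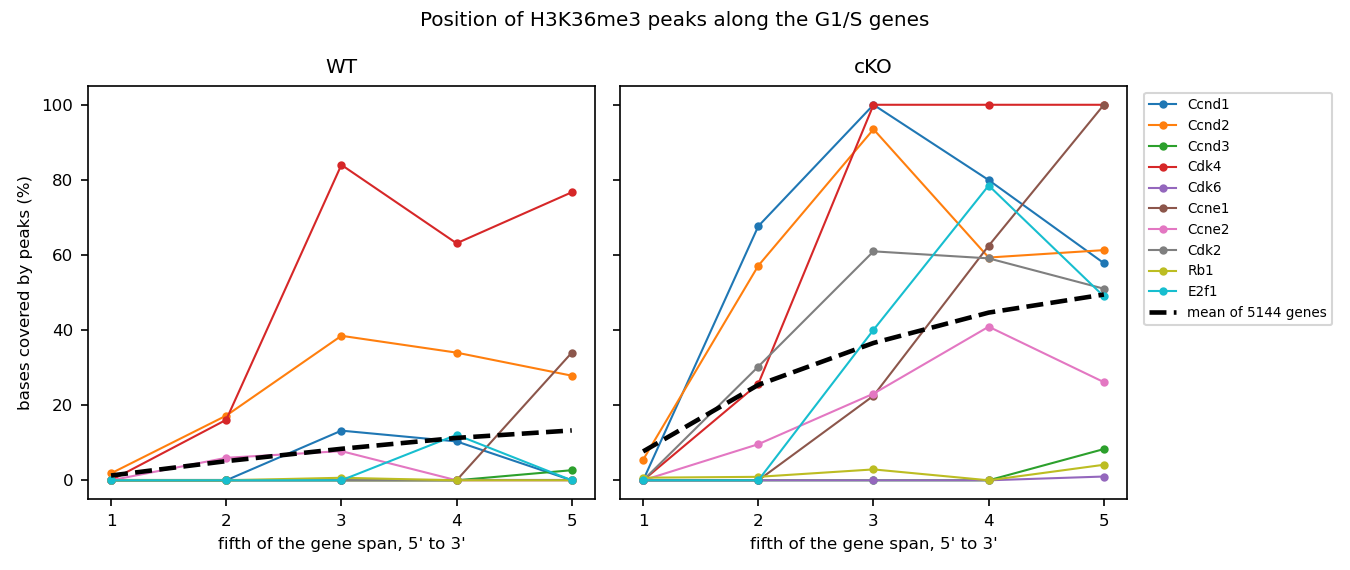
Share of bases covered by peaks (%) in each of 5 equal bins of the gene span from the 5' to the 3' end, for each of the 10 genes (coloured lines) and as the mean of 5144 genes marked in both genotypes (dashed), in WT on the left and cKO on the right. In cKO, Cdk4 reaches 100.0% in the last 3 bins while its 5'-most bin stays at 0.

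The reference gives the stretch before the start for 6 of the 10 genes, 7 stretches in all since Ccnd3 has 2, and none of them overlapped a peak in either genotype. The 3 shown here, from RefSeq (GRCm38.p6, whose chromosomes are those of mm10), are those of the gene whose mark comes nearest to its start (Cdk4), of the only gene with a match to the E2F consensus (Cdk2), and of an E2F-responsive cyclin (Ccne1). Each is the 250 bases before the start, 5′ to 3′ on the strand of the gene, at chr10:127063285-127063534 (+), chr10:128705052-128705301 (-) and chr7:38107491-38107740 (-), with a match to the consensus in capitals.
Cdk4: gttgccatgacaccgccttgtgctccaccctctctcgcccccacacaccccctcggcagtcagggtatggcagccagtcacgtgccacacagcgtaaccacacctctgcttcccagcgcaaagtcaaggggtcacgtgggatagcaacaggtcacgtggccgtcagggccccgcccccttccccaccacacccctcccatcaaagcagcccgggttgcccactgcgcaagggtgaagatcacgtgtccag
Cdk2: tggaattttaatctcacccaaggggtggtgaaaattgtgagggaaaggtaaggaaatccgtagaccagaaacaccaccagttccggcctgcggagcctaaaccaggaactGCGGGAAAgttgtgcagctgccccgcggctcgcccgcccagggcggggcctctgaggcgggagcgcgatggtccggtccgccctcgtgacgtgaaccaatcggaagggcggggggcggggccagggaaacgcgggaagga
Ccne1: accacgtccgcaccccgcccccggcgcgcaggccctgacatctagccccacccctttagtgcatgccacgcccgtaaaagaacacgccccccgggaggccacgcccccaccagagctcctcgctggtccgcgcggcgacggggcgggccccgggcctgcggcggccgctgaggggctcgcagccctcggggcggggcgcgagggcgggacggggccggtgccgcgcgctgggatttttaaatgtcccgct
The letters searched were TTTCCCGC, TTTCGCGC, TTTGCCGC and TTTGGCGC on both strands and the only match overlapped no other. The match in Cdk2, GCGGGAAA, begins at position -140 relative to the start. Of the 7 stretches 1 held a match, beside 2.35% of 21262 such stretches of protein-coding genes. A match is a string of letters and not a shown binding site, and a stretch without one may still bind E2F. The windows of E2f1 and Cdk6 lie inside their gene spans, at a start other than the outermost one. The nearest peak after the start was at 1.38 kb in WT and 1.31 kb in cKO for Cdk4, at 7.73 and 4.41 kb for Ccne1, and at 22.7 and 1.85 kb for Cdk2, where the WT peak is beyond the gene.

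Other genes of the pathway were grouped by role, and all values for them count every peak over the gene span. The counts below stand beside 31.3% of all reference genes with a WT peak over the body and 43.7% with a cKO peak. Of all genes of at least 5 kb, 32.6% were higher. The Cdk inhibitors, which hold cells in G1, had almost no coverage. None of 7 had a WT peak and 1 had a cKO peak, Cdkn1b (p27) with 6.65% coverage. None of the 4 of at least 5 kb passed the rule, and Cdkn1a, Cdkn1c, Cdkn2a, Cdkn2b, Cdkn2c and Cdkn2d had no peak in either genotype.

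Partners of the pocket proteins were marked throughout. All 17 genes of pocket proteins, E2F partners and the DREAM complex, which represses cell cycle genes in quiescence, had a peak in both genotypes, and 14 of 16 long enough were higher in cKO. The median difference was 31.1 points. Tfdp1, the dimer partner of E2F factors, went from 29.1 to 84.7%, the repressive E2f4 from 26.3 to 64.7%, and the atypical E2f8 from 7.48 to 61.2%. The Rb1 relatives Rbl1 (p107) and Rbl2 (p130) had 10.9 and 0.368% in WT and 53.3 and 15.6% in cKO, all above the values of Rb1.

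Of 10 matched genes for further cyclin and Cdk partners and activators (Cdk3 had no protein-coding entry), 6 had a WT peak and 8 a cKO peak, and 6 of 9 were higher. Cdc25a, the phosphatase that activates Cdk2, went from 33.1 to 77.7%, and Cdk1 from 29.0 to 76.9%. Of 12 genes for cyclin turnover and upstream regulation, 8 and 11 had a peak and 6 were higher, with a median difference of 10.3 points. Fzr1, an activator of the anaphase-promoting complex in G1, went from 37.6 to 73.4% and Mycn from 33.8 to 47.9%, while Cul4a was 34.8 points higher in cKO at 46.8%.

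E2F target genes of S phase entry had a median coverage per gene of 10.3% in WT and 57.1% in cKO. Of 21, 18 had a WT peak and all 21 a cKO peak, and 18 of the 20 long enough were higher, with a median difference of 38.6 points. Mcm7 and Cdt1, of the licensing of replication origins, had 52.3 and 49.6% in WT and 72.5 and 72.1% in cKO. Mcm3, also of the helicase, went from 20.3 to 78.6%, and Rrm1, the large subunit of ribonucleotide reductase, from 10.3 to 67.4%. No gene of these 5 groups had lower coverage in cKO than in WT. Among all genes of at least 5 kb, none was lower by at least 10 points. These groups were compared by their counts and medians alone, and the share of all genes called higher, 32.6%, includes many genes with no peak in either library.

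**Figure D4:**
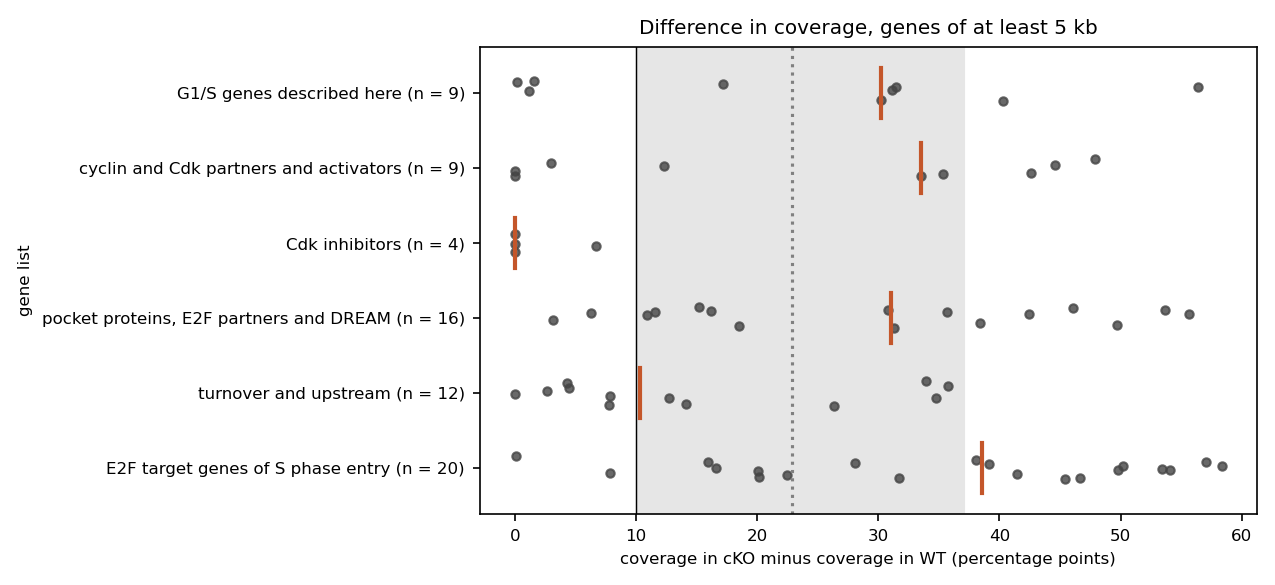
Coverage in cKO minus coverage in WT, in percentage points by gene span, for each gene of at least 5 kb (points) of the G1/S genes and 5 further groups, with group medians in orange. The grey band and dotted line are the quartiles and median of the 6398 genes with WT coverage, and the solid line is the 10 point rule; the 4 Cdk inhibitors lie below it and 18 of the 20 E2F target genes above.

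The size of the differences rested on how much of the cKO list was used. When that list was reduced from its strongest peaks (by -log10 q) to the WT covered length, 5308 cKO peaks were left, and Ccnd1, Ccnd2, Ccne2, Cdk2, Cdk6 and Rb1 held none over the span. Their differences by span were then the WT coverage with a minus sign, -4.72 points for Ccnd1, -23.9 for Ccnd2, -2.75 for Ccne2 and -0.135 for Rb1. Cdk4 kept 65.1%, Ccne1 25.0% (18.2 points above WT) and E2f1 11.0% (8.60 points). By span 1 of 9 genes was then higher and 1 lower, against 4.8% and 2.21% of all genes. Of the named WT peaks 62.5% were still met by a cKO peak, against 30.7% of all WT peaks. Summed over named peaks the cKO to WT ratio in length was then 1.64, against 1.01 for all peaks not classed as intergenic. The named cKO peaks left, and the named WT peaks that were met, belonged to 3 genes, Ccnd3, Cdk4 and Ccne1. Parts of these cKO peaks lay outside the genes, so the ratio does not describe the 10 genes as a set. Reduced to the number of WT peaks, 4 of 9 were higher by span and none lower, against 22.1% and 0.0297% of all genes. The genes lost were Ccne2, at 0.411 points, and Cdk2, at 5.19 points. Milder changes left the count by span at 6 of 9 higher and none lower. The background was then 32.3% higher and 0.00594% lower with a -log10 q of at least 5, 30.2% and 0.00594% with a fold enrichment of at least 4, and 35.8% and 0.0356% with peaks within 3 kb joined. With a 20 point rule 5 of 9 were higher, against 22.8%, and Ccne2 at 17.2 points was the gene lost.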

How the data were processed

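H3K36me3 ChIP-seq of embryonic day 13 forebrain (1% formaldehyde, per the labels' protocols) was aligned to mm10 with Bowtie2 2.2.9, per the submitters' processing notes. MACS called narrow peaks per ChIP library against an input, as version 2.1.1.20160309 in the file headers (the processing notes list MACS2 2.1.0), at a p cutoff of 1.00e-05. The authors' deposited lists give positions, summit pileup signal (extended tags), fold enrichment as a ratio to local input, and -log10 of p and q. The headers say that q is not calculated, yet the column is filled. It served to rank peaks within a list. The authors' annotation (tool not given in the sources used here) gives the class and gene name, with starts 1 bp higher.

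Annotated peaks were joined to the lists by chromosome, start less 1 bp and end, and every peak matched. Spans of 21883 protein-coding genes came from RefSeq GRCm38.p6, and strand from its promoter table or, for Ccnd1, Ccnd2, Ccne2 and Rb1, from intron and exon numbers. Coverage was computed in Python 3.11.15 (numpy 2.4.6, pandas 2.3.3) and tested on simulated peaks. The 10 members were all named. Of each pathway list the 2 with the highest WT coverage, the 2 with the largest rise and any with lower coverage were named. The rule did not cover marker genes. Rbl1, Rbl2 and the marker genes given were chosen after their values were seen. Members and lists were chosen with earlier results of these data known. Alternatives were stricter q or fold, reduced cKO lists, joined peaks, assignment by span, intergenic peaks kept, reciprocal overlap and a 20 point rule. The inputs have no peak list and were not analysed here.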

Additional observations from a re-analysis of the deposited data

How the results depend on the processing

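None of the 10 differences in coverage with named peaks changed direction or crossed 10 points at a -log10 q of at least 5. The same held with a fold enrichment of at least 4 and with intergenic peaks kept. The genes with a named WT peak, 7 in full, were 5 at that -log10 q and 6 at that fold enrichment. In full 27.9% of all genes had a named WT peak, and no such share is given for the stricter lists. Ccnd2, Cdk6 and E2f1 had no named coverage in either genotype, so stricter cutoffs could not move their difference of 0. Cdk4 is too short for the call rule. The count of 4 genes called higher was 2 after cutting the cKO list to as many peaks as WT and 1 after cutting it to the WT covered length. At equal peak number the genes lost were Ccne2 (0.411 points) and Cdk2 (0 points). Over all genes, counted by span, the share called higher was 32.6% in full and 22.1% and 4.8% in these settings. The members' count was 3 with a 20 point rule, where 22.8% of all genes passed by span. It was 6 by span, against 32.6%, and 5 with Ccnd3 measured from its second start, which was chosen after seeing the data. At the WT covered length the differences of Ccnd1 (-4.72), Ccne2 (-2.75) and Rb1 (-0.135) reversed, as no named cKO peak was left. There 3 of the 10 genes, not 8, had a named cKO peak. With the full cKO list 39.1% of all genes had one, and no such share is given for the reduced list. The share of named WT peaks met by a cKO peak was then 62.5% (30.7% of all WT peaks), and 12.5% with a reciprocal overlap of 50% (15.5% of all). The ratio of summed peak length, 3.86 in full, was 2.54 at equal peak number and 1.64 at equal covered length, beside 5.18, 3.34 and 1.01 for all peaks not classed as intergenic. It was higher, 5.13, at a -log10 q of at least 5 and 4.58 at a fold enrichment of at least 4, where no ratio over all peaks is given. With intergenic peaks kept it was 4.05, beside 5.18 for all peaks. By span Ccnd2 and E2f1 passed the rule at 31.5 and 31.1 points. With peaks joined within 3 kb Cdk4 fell to 1.92 points. No paired analysis was possible because each genotype had 1 ChIP library, and no replicate could be left out.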
